A study of Mus musculus with 12 samples.

Results

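The miR-148/miR-152 and miR-130/miR-301 families were followed through colony growth of AKR-2B cells, a mouse fibroblast line. The 6 mature miRNAs chosen by name were mmu-miR-148a-3p, mmu-miR-148b-3p and mmu-miR-152-3p of the first family and mmu-miR-130a-3p, mmu-miR-130b-3p and mmu-miR-301a-3p of the second (mmu stands for mouse and is left out below). All 6 were among the 1281 mature miRNAs listed. Cells grew without attachment in soft agar, a semi-solid medium, and received vehicle or TGFβ at 25 ng/mL. Colonies were recovered at days 2, 4 and 8, with 1 miRNA library and 1 mRNA library for each treatment and day. The 6 miRNA libraries therefore form 6 groups of 1: vehicle and TGFβ at each of the 3 days. All groups shared the cell line and the soft agar, and no library of attached cells was compared. The libraries came from 1 cell line, so their differences need not hold in primary fibroblasts.

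A miRNA is cut from a hairpin precursor, which carries a 5p and a 3p arm. The arm that is loaded into an Argonaute protein pairs through its seed, bases 2 to 8, with sites in the 3′ untranslated regions of target mRNAs and lowers their translation and stability. The miR-148/miR-152 family is known for targeting DNA methyltransferase mRNAs. The miR-130/miR-301 family is known for targeting components of the BMP and TGFβ pathways, and has been linked to matrix remodelling in fibrosis.

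The mature sequences are shown because they define the families, with the seed in capitals, 5′ to 3′ (RefSeq, GRCm38.p6):
miR-148a-3p: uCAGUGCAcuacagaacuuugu
miR-148b-3p: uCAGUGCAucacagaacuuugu
miR-152-3p: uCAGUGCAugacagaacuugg
miR-130a-3p: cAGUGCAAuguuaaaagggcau
miR-130b-3p: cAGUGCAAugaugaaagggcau
miR-301a-3p: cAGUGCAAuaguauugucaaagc

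The seeds of the families, CAGUGCA and AGUGCAA, are the same 6 letters AGUGCA, offset by 1 base. miR-148a-3p and miR-148b-3p are identical at 20 of 22 positions and differ by C9U and U10C, counted from 1 at the 5′ end with the base of miR-148a-3p first. From miR-148b-3p, miR-152-3p differs by C10G and U20G over the 21 positions compared and is 1 base shorter. miR-130a-3p and miR-130b-3p differ by U11A and A13G, whereas miR-301a-3p differs from miR-130a-3p at 10 of 22 positions. Each pair of members within a family differs at 2 or more positions, so a full-length read matches only 1 of them exactly. How the authors' counting treated mismatched or shortened reads is not given in the sources used here. Of the 1281 listed miRNAs, 1029 matched a RefSeq sequence. miR-130c, miR-721, miR-6341 and miR-6389 also carry the miR-130/miR-301 seed, and each had 0 reads in all 6 libraries. miR-301b-3p was at 0 reads in all 6 libraries as well.

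The genes lie at separate loci (GRCm38, GENCODE vM21). Mir148a, at chr6:51269812-51269910 on the minus strand, overlaps no other annotated gene. Mir148b, at chr15:103285125-103285221 on the plus strand, lies in an intron of Copz1. Mir152, at chr11:96850393-96850465 on the plus strand, lies in an intron of Copz2. These host genes encode the alternative zeta subunits of the coatomer coat of transport vesicles. Mir130a, at chr2:84741115-84741178 on the minus strand, overlaps no other annotated gene. Mir130b, at chr16:17124061-17124142 on the minus strand, lies in an intron of 2610318N02Rik together with Mir301b at chr16:17124400-17124496. Mir301, the precursor of miR-301a, lies at chr11:87113004-87113089 on the plus strand in an intron of Ska2, a spindle and kinetochore gene.

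The miRNA libraries held 108716 to 1387785 reads counted on the mature miRNAs listed. The fewest were at day 2 in vehicle and the most at day 8 in TGFβ, so the day 2 values are the least precise. With 1 library per group, ratios within a day carry 95% intervals for counting error only and no replicate check. These reads carry no molecular identifiers and are not independent molecules. Markers of mesenchymal cells (6 of 6 listed) made up 109454 to 303530 CPM (read counts divided by the scaled library size, per 1e6; scaled with trimmed mean of M-values, TMM), as is known for fibroblasts. Of 7 epithelial markers, the summed reads were 26 and 167 at day 2 (vehicle and TGFβ), then 14 and 6 in the day 4 libraries and 7 and 26 in those of day 8. The day 2 TGFβ library thus stood apart in this sum, with 77 reads of miR-200b-3p against 0 to 2 in each of the other 5 libraries. Not all 7 markers followed: miR-205-5p had 0 reads in that library, 3 in day 2 vehicle and 10 in day 8 TGFβ. miR-203-3p had 20 reads in day 2 vehicle and 34 in the day 2 TGFβ library. The liver marker miR-122-5p had 8 reads there and 0 to 3 elsewhere, and the muscle marker miR-1a-3p had 6 there and 0 or 1 elsewhere. The other muscle marker listed, miR-133a-3p, had 0 reads there and 2 in the day 8 TGFβ library. The neural miRNA miR-124-3p was at 0 in all 6, miR-9-5p had 41 to 659 reads, and the 2 leukocyte markers listed, of 4, had 2 reads in all. The 2 endothelial markers were not in the table.

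miR-148b-3p was the most abundant member in each library, and the miR-148/miR-152 family was far above the miR-130/miR-301 family. miR-148b-3p averaged 1156 CPM over the 6 libraries, miR-152-3p 506, miR-148a-3p 107, miR-130a-3p 37.1, miR-301a-3p 5.98 and miR-130b-3p 5.49. Without the day 2 TGFβ library miR-148a-3p averaged 38.6 CPM and miR-130a-3p 44.6, so their order rests on that library. miR-301a-3p and miR-130b-3p rest on 10 and 23 reads in all, and their order cannot be told apart from counting error. In the 5 libraries where both families were read, there were 18.4 to 52.5 reads of the miR-148/miR-152 family for each read of the miR-130/miR-301 family. In the sixth, day 2 with TGFβ, the miR-130/miR-301 family had 0 reads of 178877, against 212 of the miR-148/miR-152 family.

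**Figure D1:**
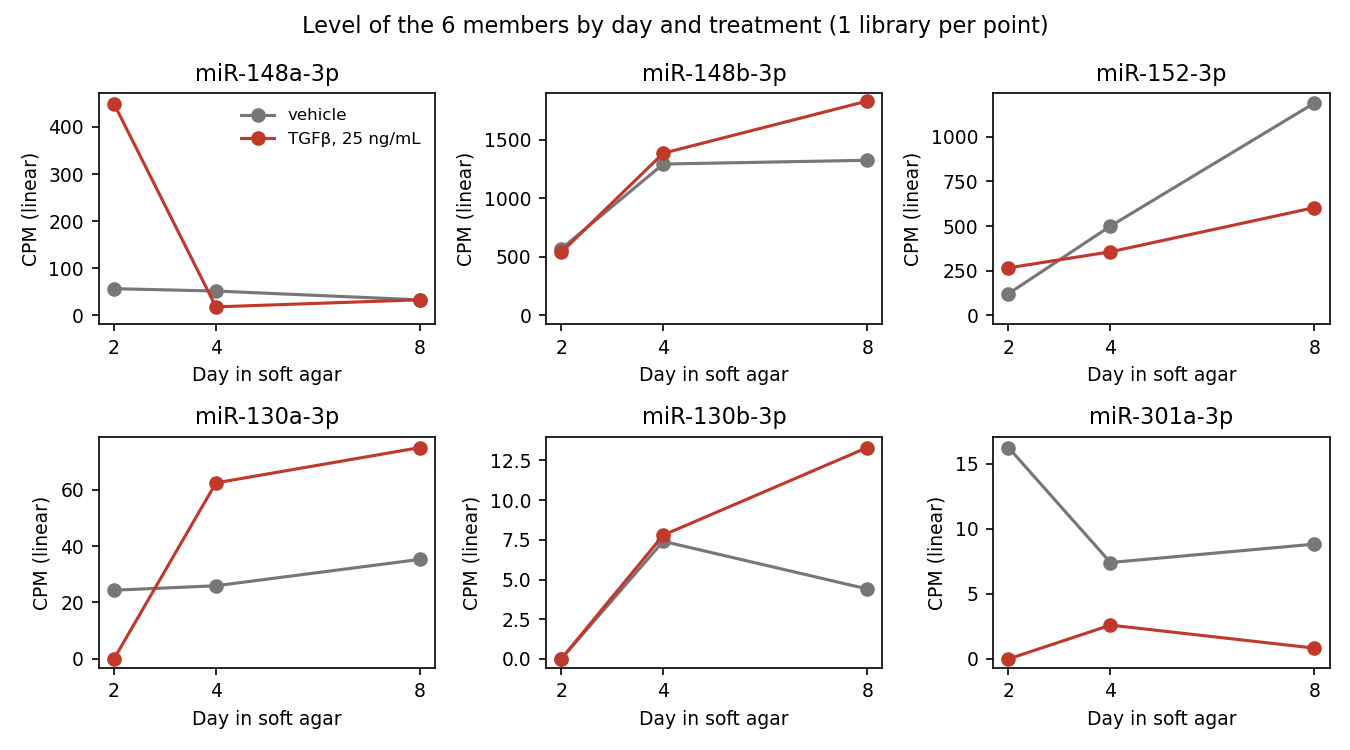
CPM (TMM-scaled, linear axes that differ between panels) of each member against day in soft agar, with 1 library per point (grey, vehicle; red, TGFβ). miR-148a-3p is at 449 CPM in the day 2 TGFβ library and between 18.2 and 56.8 in the other 5, whereas miR-148b-3p and miR-152-3p are higher at day 8 than at day 2 under both treatments.

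miR-148b-3p was read 70 times in vehicle and 91 times in TGFβ at day 2, 349 and 533 times at day 4, and 601 and 2200 times at day 8. On the CPM scale these were 568 and 538, 1292 and 1385, and 1325 and 1830. The level thus more than doubled between days 2 and 4 under both treatments, by a ratio of 2.27 (95% counting interval 1.76 to 2.98) in vehicle and 2.57 (2.06 to 3.25) in TGFβ. From day 4 to day 8 the ratio was 1.02 (0.897 to 1.17) in vehicle and 1.32 (1.20 to 1.46) in TGFβ. TGFβ over vehicle was 0.947 (0.686 to 1.31) at day 2, 1.07 (0.935 to 1.23) at day 4 and 1.38 (1.26 to 1.51) at day 8. The later 2 depend on the scaling: with total counts in place of TMM the day 4 ratio was 0.771 (0.672 to 0.885), on the other side of 1, and the day 8 ratio 1.09 (1.00 to 1.20). Total counts lower every miRNA's TGFβ ratio by 0.26, 0.47 and 0.34 on the log2 scale at days 2, 4 and 8.

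miR-152-3p had the largest ratio between days in vehicle among the members with a fold there. It had 15 and 45 reads (vehicle and TGFβ) at day 2, then 135 and 137 reads at day 4 and 539 and 725 reads at day 8. In CPM it went from 122 to 500 to 1188 in vehicle, and from 266 to 356 to 603 in TGFβ. Day 8 over day 2 was thus 9.76 (5.86 to 17.6) in vehicle and 2.27 (1.68 to 3.13) in TGFβ. The TGFβ level was above vehicle at day 2, with a ratio of 2.19 (1.20 to 4.22), and below it later. It was 1.40-fold lower (1.10 to 1.79) at day 4 and 1.97-fold lower (1.76 to 2.21) at day 8. The day 2 response over the day 8 response was 4.31 (2.38 to 7.81). With total counts the day 2 ratio was 1.82 (0.998 to 3.52) and no longer excluded 1, and the day 4 and day 8 ratios stayed below 1 at 0.512 (0.401 to 0.655) and 0.402 (0.359 to 0.450).

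miR-148a-3p differed from both. It had 7 reads in vehicle and 76 in TGFβ at day 2, then 14 and 7 reads at day 4 and 15 and 40 reads at day 8. In CPM these were 56.8 and 449, 51.8 and 18.2, and 33.1 and 33.3, so that 1 library of 6 was high. TGFβ over vehicle was 7.91 (3.66 to 20.3) at day 2. At day 4 the level in TGFβ was 2.85-fold lower (1.08 to 8.34), from 14 against 7 reads, and at day 8 the ratio was 1.01 (0.544 to 1.96). In TGFβ the level was 24.7-fold lower (11.4 to 63.5) at day 4 than at day 2, while in vehicle day 4 over day 2 was 0.913 (0.345 to 2.67). The day 2 TGFβ library is the one with 167 reads of epithelial markers (988 CPM, against 15.4 to 211 CPM in the other 5), 6 of 7 of them with a read. The part of other cells or of this library in the miR-148a-3p level was not tested. In bulk RNA, more cells of a type and more of the miRNA per cell cannot be told apart.

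**Figure D2:**
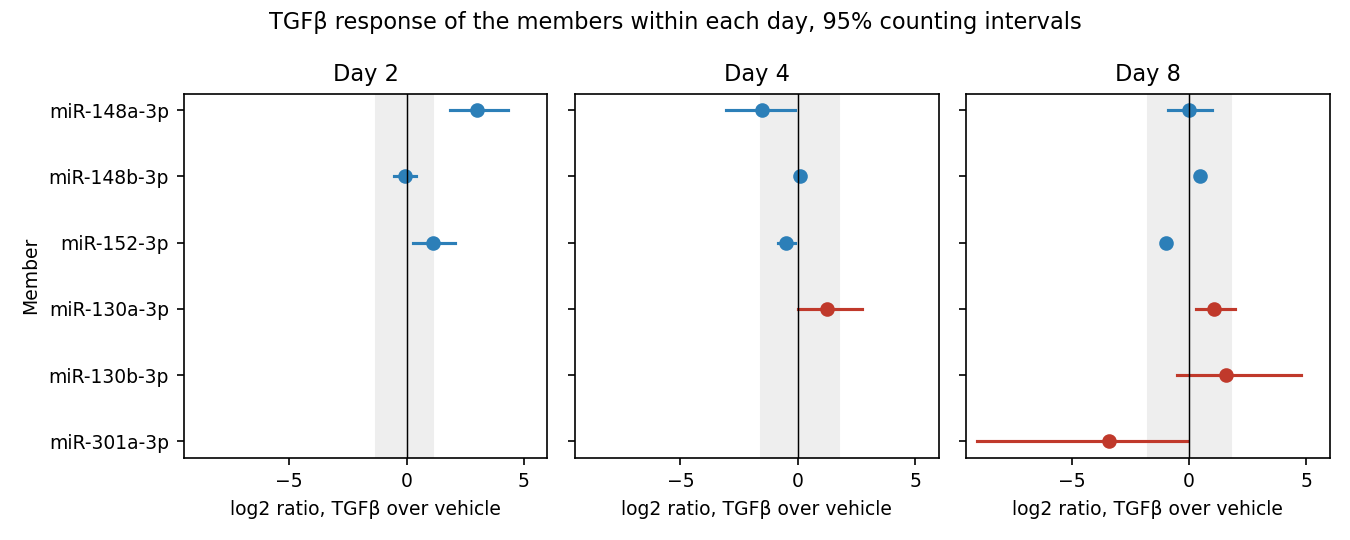
log2 ratio of TGFβ over vehicle within each day (horizontal axis) for each member (vertical axis), with bars for 95% counting intervals (n = 1 library per group); blue is the miR-148/miR-152 family and red the miR-130/miR-301 family. Grey bands span the 10th to 90th percentile of miRNAs that average 10 CPM or more; miR-148a-3p at day 2 (2.98) and miR-301a-3p at day 8 (-3.41, from 4 and 1 reads) lie beyond the bands, miR-152-3p at day 2 (1.13) lies at the edge, and members with no point had 3 or fewer reads in both libraries.

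The wide spread of all miRNAs sets the scale for these ratios. At each day 4 members (miR-148a-3p, miR-148b-3p, miR-152-3p and miR-130a-3p) averaged 10 CPM or more over both libraries. At day 2, miR-148a-3p and miR-152-3p were at least 1.5-fold higher in TGFβ with an interval above 1, as were 11.3% of all 362 miRNAs at that abundance, and none was so called lower (11.6%). At day 4, miR-130a-3p was so called higher (25.5% of 368) and miR-148a-3p lower (18.5%). At day 8, miR-130a-3p was higher (29.6% of 361) and miR-152-3p lower (27.7%). With such shares of all miRNAs at days 4 and 8, these calls are not particular to the families. Between days 2 and 8, miR-148b-3p and miR-152-3p were at least 1.5-fold higher in vehicle (17.8% of 360), and no member was lower (18.6%). In TGFβ the same miRNAs and miR-130a-3p were higher (29.4% of 374). miR-148a-3p was lower at day 8 in TGFβ (27.8%).

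Ratios between members of 1 library do not depend on its scaling. For each read of miR-148b-3p there were 0.214 and 0.495 reads of miR-152-3p at day 2 (vehicle and TGFβ), 0.387 and 0.257 reads at day 4, and 0.897 and 0.330 reads at day 8. The TGFβ response of miR-152-3p over that of miR-148b-3p was accordingly 2.31 (1.19 to 4.47) at day 2, 0.664 (0.506 to 0.873) at day 4 and 0.367 (0.318 to 0.424) at day 8. These miRNAs with the same seed thus differed in opposite directions at day 2 and at days 4 and 8. For miR-148a-3p over miR-148b-3p the same ratio of responses was 8.35 (3.63 to 19.2) at day 2, 0.327 (0.131 to 0.819) at day 4 and 0.728 (0.400 to 1.33) at day 8. In vehicle, the day 8 over day 2 change of miR-152-3p was 4.19 (2.37 to 7.40) times that of miR-148b-3p, and in TGFβ it was 0.666 (0.462 to 0.962) times.

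The 3 members of the miR-148/miR-152 family had 92 and 212 reads at day 2 (vehicle and TGFβ), then 498 and 677 reads at day 4 and 1155 and 2965 reads at day 8. In CPM the sum was 747 and 1254, 1844 and 1759, and 2546 and 2466. TGFβ over vehicle for the sum was 1.68 (1.31 to 2.17) at day 2, 0.954 (0.848 to 1.07) at day 4 and 0.969 (0.905 to 1.04) at day 8. Without miR-148a-3p the day 2 log2 ratio went from 0.75 to 0.22. With total counts the day 4 and day 8 ratios were 0.686 (0.610 to 0.772) and 0.768 (0.717 to 0.822), both below 1.

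**Figure D3:**
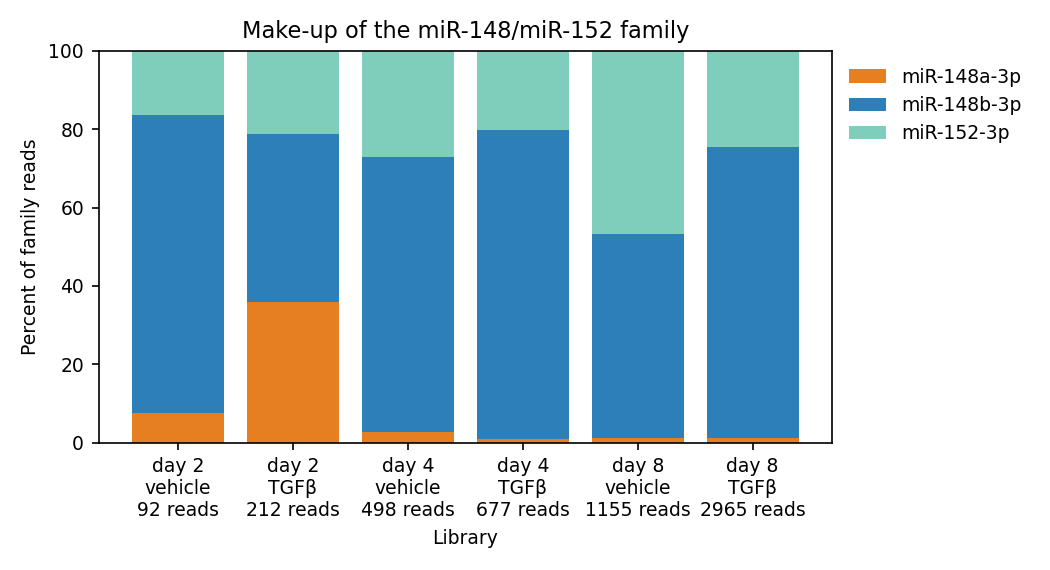
Percent of the miR-148/miR-152 family's reads (vertical axis) taken by each member in each library (horizontal axis, with the family's reads below). miR-148a-3p takes 35.8% in the day 2 TGFβ library and 1.03% to 7.61% in the others, and miR-152-3p takes 46.7% at day 8 in vehicle against 24.5% in TGFβ.

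The make-up of the family differed between libraries. miR-148b-3p took 76.1% of the family's reads at day 2 in vehicle (Wilson 95% interval 66.4% to 83.6%) and 42.9% in TGFβ. Its share was 70.1% and 78.7% in the day 4 libraries and 52.0% and 74.2% in those of day 8. The share of miR-152-3p was 16.3% and 21.2% at day 2, then 27.1% and 20.2% at day 4 and finally 46.7% and 24.5% at day 8. All 3 members would pair with the same seed match, so these shares describe which gene supplies the seed and not how much of it was present.

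In the miR-130/miR-301 family, miR-130a-3p held most of the reads. It had 3 and 0 reads (vehicle and TGFβ) at day 2, then 7 and 24 reads at day 4 and 16 and 90 reads at day 8. In CPM it was at 24.3 and 0, 25.9 and 62.4, and 35.3 and 74.9. No fold was taken at day 2, where both libraries had 3 or fewer reads and a count of 0 in TGFβ allows a level of up to 17.7 CPM. TGFβ over vehicle was 2.41 (1.01 to 6.61) at day 4 and 2.12 (1.24 to 3.87) at day 8. With total counts these were 1.73 (0.724 to 4.76) and 1.68 (0.981 to 3.07), so that neither interval excluded 1. In TGFβ the level was 3.51-fold higher at day 4 than at day 2 and 4.22-fold higher at day 8 with the count of 0 set to 3 reads in that library. The lower ends of the counting intervals were 2.64 and 3.36. In vehicle, day 8 over day 2 was 1.45 (0.415 to 7.76).

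miR-130b-3p had 0 and 0 reads at day 2, then 2 and 3 reads at day 4 and 2 and 16 reads at day 8. Its day 8 ratio of TGFβ over vehicle was 3.02 (0.710 to 27.1), which depth does not separate from 1. miR-301a-3p had 2 and 0 reads at day 2, then 2 and 1 reads at day 4 and 4 and 1 reads at day 8, a day 8 ratio of 0.0944 (0.00192 to 0.953). On the log2 scale this was -3.41, and -1.30 with a prior count of 2 in edgeR, so its size rests on 5 reads. Summed, the family had 5 and 0 reads at day 2, then 11 and 28 reads at day 4 and 22 and 107 reads at day 8. TGFβ over vehicle for the sum was 1.79 (0.862 to 3.98) at day 4 and 1.84 (1.15 to 3.05) at day 8, the latter 1.45 (0.913 to 2.42) with total counts. At day 2 the sum was 2.29-fold lower in TGFβ with the count of 0 set to 3 reads, and the upper end of the counting interval was a ratio of 0.795. That rests on 5 reads in the vehicle library.

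The arms of the hairpins divided the miR-130/miR-301 family. Over the 6 libraries the 3p arm held 98.2% of the reads of miR-148b (95% Wilson interval 97.7% to 98.5%, 3916 reads of both arms), 96.4% of miR-148a (92.3% to 98.3%, 165 reads) and 94.2% of miR-152 (93.0% to 95.2%, 1694 reads). It held 82.4% of miR-130a (75.9% to 87.3%, 170 reads). In contrast, the 3p arm held 11.2% of miR-130b (7.56% to 16.2%), with 23 reads against 183 of the 5p arm, and 22.2% of miR-301a (12.5% to 36.3%), with 10 against 35. More reads on the 3p than on the 5p arm were found for 98 of the 199 precursors with at least 20 reads on both arms together (49.2%). The 5p arm of miR-130b led in each of the 6 libraries: 12 against 0 and 9 against 0 reads at day 2, 27 against 2 and 27 against 3 at day 4, and 22 against 2 and 86 against 16 at day 8. The member with the family seed was therefore the less abundant arm of these precursors.

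The 3 hairpins are shown to place the arms, which are in capitals, the 5p arm first (RefSeq, GRCm38.p6):
Mir130a: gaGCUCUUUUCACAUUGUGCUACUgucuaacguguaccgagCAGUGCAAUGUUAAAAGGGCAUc
Mir130b: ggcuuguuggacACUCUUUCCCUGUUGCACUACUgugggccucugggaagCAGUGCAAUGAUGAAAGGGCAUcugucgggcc
Mir301: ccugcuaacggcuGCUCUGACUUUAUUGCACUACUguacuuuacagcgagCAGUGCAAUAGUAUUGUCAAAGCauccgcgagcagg

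**Figure D4:**
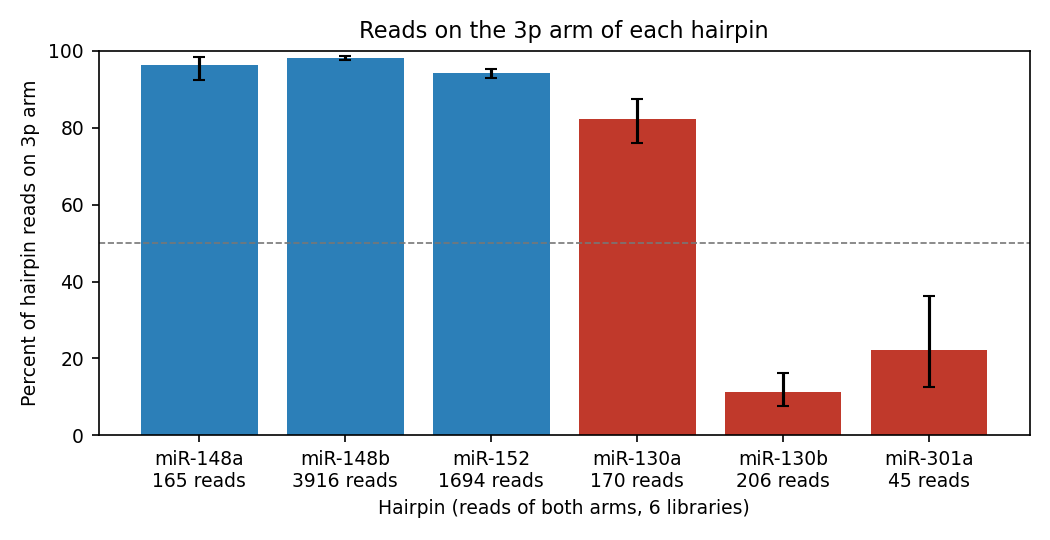
Percent of a hairpin's reads that lie on the 3p arm (vertical axis), summed over 6 libraries, with Wilson 95% intervals; the dashed line marks equal arms, blue is the miR-148/miR-152 family and red the miR-130/miR-301 family. miR-130b, at 11.2%, and miR-301a, at 22.2%, lie below the line, and the other 4 lie at 82.4% or above.

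A model over all 6 libraries asked which differences were common to the days or to the treatments (edgeR quasi-likelihood test, day as a factor plus treatment, Benjamini-Hochberg adjustment over 309 miRNAs). Of the members, 4 passed its filter on low counts; miR-130b-3p and miR-301a-3p did not. Averaged over the days, none of the 4 passed for TGFβ, against 1.94% of all miRNAs tested (6 of 309; 28.8% before adjustment). The log2 changes were 0.55 ± 0.80 for miR-148a-3p (SE, edgeR adjusted p = 0.691), 0.17 ± 0.34 for miR-148b-3p (0.768), -0.23 ± 0.48 for miR-152-3p (0.788) and 0.67 ± 0.76 for miR-130a-3p (0.583). The averages of miR-148a-3p, miR-148b-3p and miR-152-3p changed sign in at least 1 of 9 alternatives. That of miR-152-3p was -0.75 without day 2 (edgeR adjusted p = 0.0562). Days are not replicates, and the residual degrees of freedom hold the differences of the response between days given above.

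For day 8 against day 2, averaged over treatment, none of the 4 passed, against 6.8% of all miRNAs (21 of 309; 28.5% before adjustment). miR-148b-3p was at 1.5 ± 0.42 and miR-152-3p at 2.11 ± 0.60, each with edgeR adjusted p = 0.0586, and miR-148a-3p was at -2.80 ± 0.92 (adjusted p = 0.0909). miR-130a-3p was at 2.29 ± 1.15 (edgeR adjusted p = 0.212). Of 7 alternatives, 5 called miR-148a-3p (adjusted p from 0.00209 to 0.797), 5 called miR-148b-3p (0.0131 to 0.220) and 6 called miR-152-3p (0.00191 to 0.0740), in the same directions. Without the day 2 TGFβ library, the log2 change of miR-148a-3p was -0.39 (edgeR adjusted p = 0.797), that of miR-148b-3p 1.33 (0.0295) and that of miR-152-3p 3.19 (0.00485). The day 8 to day 2 difference of miR-148a-3p thus rested on that library, and that of miR-152-3p was larger without it. For day 4 against day 2 no miRNA of 309 passed in edgeR (0%). Before adjustment 26 had p under 0.05 (8.41%), and DESeq2 called 2 after adjustment. The members' log2 changes were -2.69 ± 1.00 for miR-148a-3p (edgeR adjusted p = 0.452), 1.27 ± 0.42 for miR-148b-3p (0.439), 1.07 ± 0.59 for miR-152-3p (0.525) and 1.97 ± 1.20 for miR-130a-3p (0.525). Of 7 edgeR or DESeq2 alternatives, 1 called miR-148a-3p (no filter, edgeR adjusted p = 0.0185; range to 0.836) and 1 called miR-152-3p (without the day 2 TGFβ library, 0.0486; range to 0.683).

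The miRNAs most like each member across libraries were taken by Pearson's r of log2 CPM over the 6 libraries, among 247 miRNAs that average 50 CPM or more. These are descriptions over libraries that also differ in day, depth and treatment. Closest to miR-148a-3p were miR-192-5p (r = 0.967), known from gut and liver epithelium, miR-10b-5p (0.945), of a Hox cluster, and miR-200b-3p (0.934), an epithelial marker. miR-10b-5p was at 290 CPM in the day 2 TGFβ library and 5.2 to 19.8 elsewhere, and miR-200b-3p at 455 CPM there and 0 to 8.12 elsewhere. miR-192-5p was at 183 CPM there and 39.0 to 73.0 elsewhere. These 3 were chosen by r over the same 6 libraries, of which 1 was high for miR-148a-3p. A shared high point in that library therefore follows from the choice and is not a test. Closest to miR-148b-3p were miR-140-3p (0.960), miR-191-5p (0.945) and miR-339-5p (0.937). Closest to miR-152-3p were miR-99a-5p (0.955), miR-26a-5p (0.913) and miR-140-5p (0.902), and to miR-130a-3p miR-221-3p (0.972), miR-324-3p (0.971) and miR-30b-5p (0.964). The count of miR-130a-3p was 0 in the day 2 TGFβ library. miR-221-3p, miR-324-3p and miR-30b-5p were also lowest there, at 3856, 101 and 17.7 CPM. How far these r values rest on that library was not tested. Between members, r was 0.76 for miR-148b-3p and miR-152-3p and -0.75 for miR-148a-3p and miR-148b-3p. With miR-130a-3p, r was -0.97 for miR-148a-3p, 0.81 for miR-148b-3p and 0.36 for miR-152-3p. For miR-148a-3p and miR-152-3p it was -0.36. The day 2 TGFβ library was the highest for miR-148a-3p and had 0 reads of miR-130a-3p. Its part in the r values between members was not tested either. miR-130b-3p and miR-301a-3p had too few reads for such a ranking to be read.

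**Figure D5:**
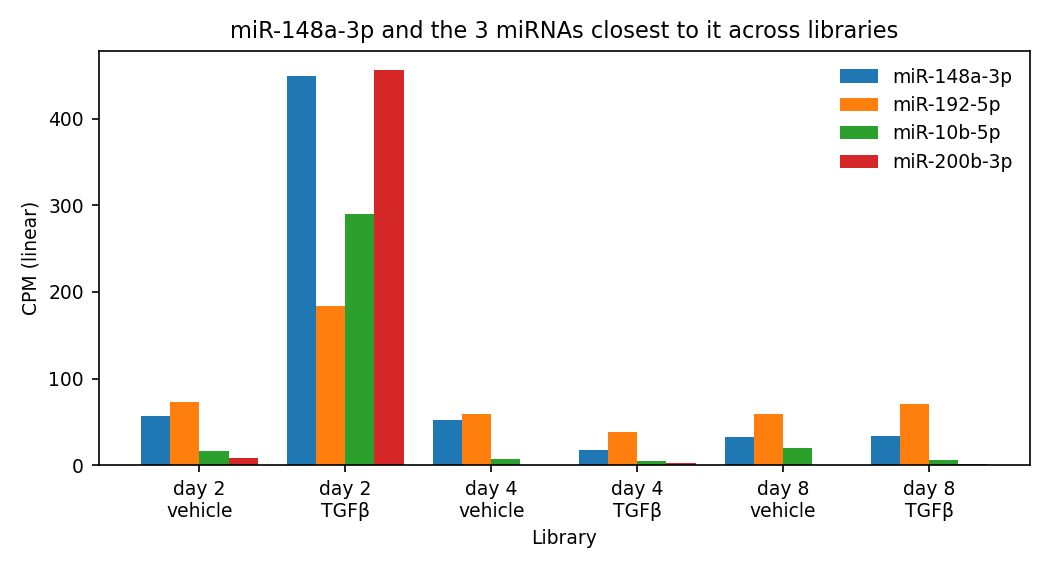
CPM (linear vertical axis, TMM-scaled) in each of 6 libraries (horizontal axis) of miR-148a-3p and the 3 miRNAs with the highest Pearson's r to it. All 4 are highest in the day 2 TGFβ library, where miR-148a-3p is at 449 CPM and miR-200b-3p at 455 CPM.

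The mRNA of the same cultures is given in the authors' deposited tables as 1 ratio per gene and day, 998 genes per day with 499 above 1 and 499 below. The headers name no direction. Ratios were read as TGFβ over vehicle because Pmepa1, a direct TGFβ target, then lies above 1 at each day (5.41, 22.1 and 14.2 in the authors' deposited tables). Read the other way, each mRNA direction below would invert. The smallest listed folds were 3 above 1 at day 2, 5 above 1 at days 4 and 8, and 7 below 1 at each day. A gene that is not listed is therefore not shown to be unchanged. Written as reduced fractions, 99.3% of the ratios have an odd numerator and an odd denominator, which is the form of counts plus 0.5 with no scaling for depth.

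None of the 3 host genes (Copz1, Copz2, Ska2) and none of 10 miRNA processing genes was listed at any day. Of 25 studied targets of miR-148/miR-152, day 2 lists 1 above 1 and 1 below it, and day 8 lists none. Of 33 studied targets of miR-130/miR-301, day 2 lists 1 above and 1 below, and day 8 lists 1 above and 0 below. For scale, of 20982 coding genes with a 3′ untranslated region, 367, 420 and 408 were listed above 1 at days 2, 4 and 8. Below 1 there were 410, 385 and 411. The counts of these short lists were not tested against that background. Mitf, a transcription factor of the melanocyte and osteoclast lineages on the miR-148/miR-152 list, had a 7.16-fold lower value in the authors' deposited table of day 2, a ratio of 163 to 1167. Igf1, a growth factor on the miR-130/miR-301 list, had ratios of 10.3 (day 2), 26.3 (day 4) and 44.3 (day 8) in the authors' deposited tables, from 31, 79 and 133 to 3.

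The ratios of Meox2 and Wnt1 can come from a few reads, and those of Igf1 from as few as 1 read in vehicle at each day. Meox2, a mesodermal homeobox gene on the miR-130/miR-301 list, was 17-fold lower in the authors' deposited table of day 2 (1 to 17), as 0 against 8 reads would give. Wnt1, a signalling ligand on the miR-148/miR-152 list, had a ratio of 5 in the authors' deposited table of day 2 (5 to 1, as from 2 against 0 reads). Counts per mRNA library were not used here, so these ratios carry no error, and they do not test an effect of a member on a target.

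The seed matches in the 3′ untranslated regions of these genes are shown because a single site can match both families, with the match in capitals within 24 bases (GENCODE vM21, 1 transcript per gene, transcript strand):
Meox2, miR-148/miR-152: tttgctttggctTGCACTGaaaat
Meox2, miR-130/miR-301: gtttgctttggcTTGCACTgaaaa
Wnt1, miR-148/miR-152: ggagactcctttTGCACTGccccc
Mitf, miR-148/miR-152: tctgaaaaaaaaTGCACTGgggag

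The search took TGCACTG for miR-148/miR-152 and TTGCACT for miR-130/miR-301 on the transcript strand, and these overlap by 6 letters, so that TTGCACTG counts for both. Meox2 held 2 matches of each, all from such shared stretches, and Wnt1 held 1 of each. Mitf held 1 of the miR-148/miR-152 match and 0 of the other, and Igf1 held 0 of either in 453 bases. Among all 20982 coding genes with a 3′ untranslated region, 11.5% held the miR-148/miR-152 match and 9.04% the miR-130/miR-301 match. Of the genes listed above 1, 13.1%, 11.4% and 9.07% held the miR-148/miR-152 match at days 2, 4 and 8, and of those below 1, 10%, 8.83% and 10.5%. The miR-130/miR-301 match was held by 7.36%, 9.05% and 8.33% of genes above 1 and 7.32%, 5.19% and 6.57% of those below. These shares are descriptions with no test and no adjustment for length. The median length of the region was 804 bases over all coding genes and 726 to 971.5 bases in the listed sets. A match is only those letters in 1 transcript, and no match says nothing of the miRNA.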

How the data were processed

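The 6 members and the gene and marker lists were chosen with earlier results of these data known. All 6 members are named, with the same-seed miRNAs, the other arms, the 3 closest miRNAs by r, and listed genes of the fixed lists; some of these genes, and the day 4 counts that need them, are not reported here. The authors deposited whole read counts per mature miRNA, with no normalization, per the file headers, and a table of RPM values, which was used only as an alternative. The mRNA tables deposited by the authors hold a ratio (fold) per gene. The submitters' processing notes name edgeR 3.9 and mm10 with no role; no aligner or read counter is named in any source used here. Colonies were recovered from a soft agar kit before RNA extraction, per the labels' protocols.

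Counts were filtered with filterByExpr and then scaled with TMM factors of 0.838 to 1.17 in edgeR 4.0.16 (R 4.3.3, limma 3.58.1). The quasi-likelihood model had day plus treatment, 2 residual degrees of freedom, prior degrees of freedom of 6.79 and a biological coefficient of variation of 33.4%, with a threshold of 0.05. It was tested on simulated data with a common dispersion, no day effect and the same TGFβ effect at each day. Responses that differ between days, as described above, were not simulated. Within-day ratios used exact conditional binomial 95% intervals, and shares Wilson intervals. Ratios of ratios used normal (Wald) intervals on the log scale. For the fold of a member or family with a count of 0, that count was set to 3. Counting intervals and 1.5-fold calls kept the 0, and the percentile bands over all miRNAs added a small constant to each count. Fold shares over all miRNAs used a mean of at least 10 CPM and 1.5-fold. Alternatives were other scalings, DESeq2 1.42.0, no filter, and leaving out a day. Leaving out the day 2 TGFβ library, a filter by treatment group, the family sum without miR-148a-3p, means without that library and the seed match search were chosen after seeing the data. Each mapped column was used, and 0 per-sample columns were set aside.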

Additional observations from a re-analysis of the deposited data

Results flagged for a closer look

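The TGFβ response of 2 members lay on opposite sides of the vehicle level at different days, and with 1 library per treatment and day the difference between days has no replicate test. Counting intervals of that difference excluded 1: the day 2 response over the later one was 22.6 (6.84 to 74.3) at day 4 for miR-148a-3p and 4.31 (2.38 to 7.81) at day 8 for miR-152-3p. For miR-148a-3p the log2 ratio of TGFβ over vehicle was 2.98 at day 2 and -1.51 at day 4. The day 2 value rests on the library with 167 reads of epithelial markers, and the day 4 value on 14 against 7 reads. For miR-152-3p the log2 ratio was 1.13 at day 2, and its later values were -0.49 (day 4) and -0.98 (day 8). Its day 2 value rests on the same library, and with total counts the day 2 ratio was 1.82 (0.998 to 3.52). The reads behind the day 8 value are 539 and 725.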

How the results depend on the processing

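The model paired the libraries by day, since day, which joins a vehicle and a TGFβ library, is a factor of it. No pairing beyond day was possible because each group has 1 library and the labels carry no replicate numbers. Counts of miRNAs called moved most. For TGFβ averaged over days, 6 were called, against 58 with DESeq2 size factors, 58 with total counts, 35 with DESeq2, 46 with no filter, 109 without day 2, 2 without day 4, 3 without day 8, 111 without the day 2 TGFβ library and 21 with a filter by treatment group. For day 8 against day 2, 21 were called, against 58, 54, 52 and 62 under the first 4 of these, 13 without day 4, 41 without the day 2 TGFβ library and 43 with the group filter. For day 4 against day 2, 0 were called, against 2 with size factors, 2 with DESeq2, 13 with no filter and 8 without the day 2 TGFβ library. The miR-148/miR-152 sum had log2 ratios of 0.75, -0.07 and -0.05 at days 2, 4 and 8. Without its most abundant member these were 2.00, -0.56 and -0.94, and without miR-148a-3p the first was 0.22. With total counts the later 2 were -0.54 and -0.38, and with size factors the day 4 value was -0.24. The miR-130/miR-301 sum, 0.84 at day 4 and 0.88 at day 8, was -0.51 and 0.10 without miR-130a-3p. Among single members, 115 alternative values kept their call or moved by less than counting error, 18 newly passed the threshold and 8 moved. A kept call does not mean a kept value. The TGFβ average of miR-148a-3p went from 0.55 to -0.60 without day 2. Its day 8 against day 2 change went from -2.80 to -0.39 without the day 2 TGFβ library, and both are among the 115. The cause of these changes was not tested, except that sums without a member hold fewer reads.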
